A study of Mus musculus with 9 samples.

Results

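The genes described here encode 9 subunits of the Polycomb repressive complexes, namely Ezh2, Ezh1, Eed and Suz12 of PRC2 and Bmi1, Cbx2, Cbx6, Cbx7 and Cbx8 of PRC1. They were picked by exact symbol, and all 9 were found among the 38197 gene symbols of the deposited tables and passed the filter on low counts. RNA was taken from wild-type neural progenitors made from the mouse ESC line E14.1 (strain 129), and the libraries fell into 3 time points, 4.5DDC, 5.5DDC and 6.5DDC (days in differentiation conditions), with 3 replicates each. Every culture had been exposed to RA and to SAG, an agonist of Smo, over the first 3 DDC as the labels state, and cells carrying the surface protein prominin-1 were enriched on magnetic beads before lysis. The paper describes a single wild-type ESC line, 1 field of the labels gives the ages in days as 4, 5 and 6 where the others have 4.5, 5.5 and 6.5, and no label says whether replicates were separate differentiations. The p-values therefore measure the spread between these libraries, which may be technical. Polyadenylated RNA was sequenced, and library totals were 11244486 to 17820601 counts at 4.5DDC, 11066568 to 25506193 at 5.5DDC and 12851786 to 16479972 at 6.5DDC.

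PRC2 places methyl groups on lysine 27 of histone H3 through Ezh2 or its paralog Ezh1, and both need Eed and Suz12 for activity. Canonical PRC1 binds that mark through the chromodomain of a Cbx protein, compacts chromatin and ubiquitinates histone H2A, with Bmi1 as one of its alternative RING-finger partners. In the developing nervous system, these complexes hold the genes of other fates silent, and dividing progenitors are known to rely on Ezh2 whereas Ezh1 is typical of cells that have left the cycle.

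Replicate 1 of each time point was further from replicates 2 and 3 than these were from each other. At 4.5DDC the gap was small, with a chi-square per degree of freedom of 38.8 and 39.1 against 32 between replicates 2 and 3. Across the 14742 genes tested, the deviation of replicate 1 from the mean of its time point correlated with that of replicate 1 at the next time point (r = 0.739 between 4.5DDC and 5.5DDC and 0.454 between 5.5DDC and 6.5DDC). Its correlation with the other numbers was negative (r between −0.643 and −0.25 for the same intervals), a sign that subtracting the mean largely sets and that adds no separate evidence. Replicates 2 and 3 of 5.5DDC were closer to each other than other replicates were, with a chi-square per degree of freedom of 2.58 against 26 to 68.1 for the other pairs, which is more than sampling noise but does not show that they were separate cultures. Every fit of replicates 2 and 3 takes part of its spread from this pair. Calls over the whole span are therefore given for all 9 libraries and also with replicates 2 and 3 only. Between 4.5DDC and 6.5DDC the numbers did not pair the libraries (r = 0.38, −0.0271 and −0.196). Values from 4.5DDC to 6.5DDC inside replicate numbers therefore describe the libraries and add no separate evidence.

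Between 4.5DDC and 6.5DDC, called the whole span here, 4 of the 9 subunit genes changed, against 18.7% of all genes tested. Cbx2, Ezh2 and Eed fell, where 9.53% of genes did, and Cbx6 rose, where 9.21% of genes did. Suz12, Bmi1, Ezh1, Cbx7 and Cbx8 did not pass the test. In replicates 2 and 3 only, 5 of the 9 changed, against 31.3% of genes, and the additional one was Ezh1. A change here means an adjusted p under 0.05 in the quasi-likelihood test of edgeR, adjusted over all genes by the method of Benjamini and Hochberg (SE, standard error of the log2 fold change). These are bulk samples, so fewer cells of a type and less RNA per cell cannot be told apart.

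Ezh2, the main methyltransferase of PRC2 in dividing cells, had the highest mean level of the 9 genes at every time point. Its FPKM (fragments scaled to transcript length and sequencing depth) was 133, 136 and 176 in replicates 1 to 3 of 4.5DDC, 83.3, 96.0 and 109 at 5.5DDC, and 93.0, 92.7 and 70.9 at 6.5DDC. The 3 libraries of 4.5DDC lay above all others, while those of 5.5DDC and 6.5DDC overlapped. Its counts fell by 0.84 (log2 scale, whole span, SE 0.19, adjusted p = 0.0165), and the call held in all 21 alternatives, with adjusted p from 0.00108 to 0.0496. Inside replicate numbers 1 to 3 the fall was 0.42, 0.65 and 1.41, and the fit of replicates 2 and 3 gave −1.03 (SE 0.19, adjusted p = 0.00542). Since the libraries of 4.5DDC and 6.5DDC did not overlap, a fall in each number was largely set. Most of the fall lay in the first interval, with a log2 fold change of −0.62 between 4.5DDC and 5.5DDC against −0.22 afterwards. Neither step passed the test (adjusted p = 0.202 and 0.553), and the difference between the steps did not either (0.40, SE 0.33, adjusted p = 0.771).

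Ezh1, the less active paralog, was expressed at a small fraction of the level of Ezh2. It measured 6.08, 4.13 and 4.43 FPKM at 4.5DDC, 7.02, 5.62 and 5.94 at 5.5DDC, and 5.44, 6.02 and 8.81 at 6.5DDC. Replicate 1 was the highest library at 4.5DDC and 5.5DDC and the lowest at 6.5DDC, and the time points overlapped in all 3 pairs. Its whole-span log2 fold change came to 0.43 (SE 0.20, adjusted p = 0.151). Replicates 2 and 3 gave 0.67 and 0.70 within their own numbers and replicate 1 gave −0.05, and without replicate 1 the rise of 0.69 passed the test (SE 0.18, adjusted p = 0.0239), the only one of 21 alternatives in which it did (adjusted p up to 0.385), with a spread that includes the close pair of 5.5DDC.

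The FPKM ratio of Ezh2 to Ezh1 was 21.8, 32.9 and 39.7 at 4.5DDC, 11.9, 17.1 and 18.3 at 5.5DDC, and 17.1, 15.4 and 8.05 at 6.5DDC. All libraries of 4.5DDC lay above all later ones, and Ezh2 exceeded Ezh1 in every library. The mean ratio went from 31.5 ± 9.01 (SD, n = 3) to 15.7 ± 3.42 and 13.5 ± 4.81. Across the 3 time points the log2 ratio gave p = 0.025 in an exact permutation test over all arrangements of the libraries (upper tail of the between-group sum of squares), or 0.05 when adjusted over the 2 ratios tested, which does not fall under 0.05. The difference in the mean log2 ratio was −0.98 for the first interval, −0.27 for the second and −1.25 for the whole span, with exact two-sided p = 0.1, 0.6 and 0.1, and 0.1 is the smallest value that 3 libraries against 3 allow. Inside replicate numbers 1 to 3 the log2 ratio differed by −0.88, −0.94 and −1.12 over the first interval and by 0.53, −0.15 and −1.19 over the second. Without replicate 1 of 4.5DDC the adjusted p across the time points was 0.0214, and with a pseudocount of 1 added to FPKM it was 0.0429, while the other alternatives gave 0.0571 to 0.129.

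**Figure D1:**
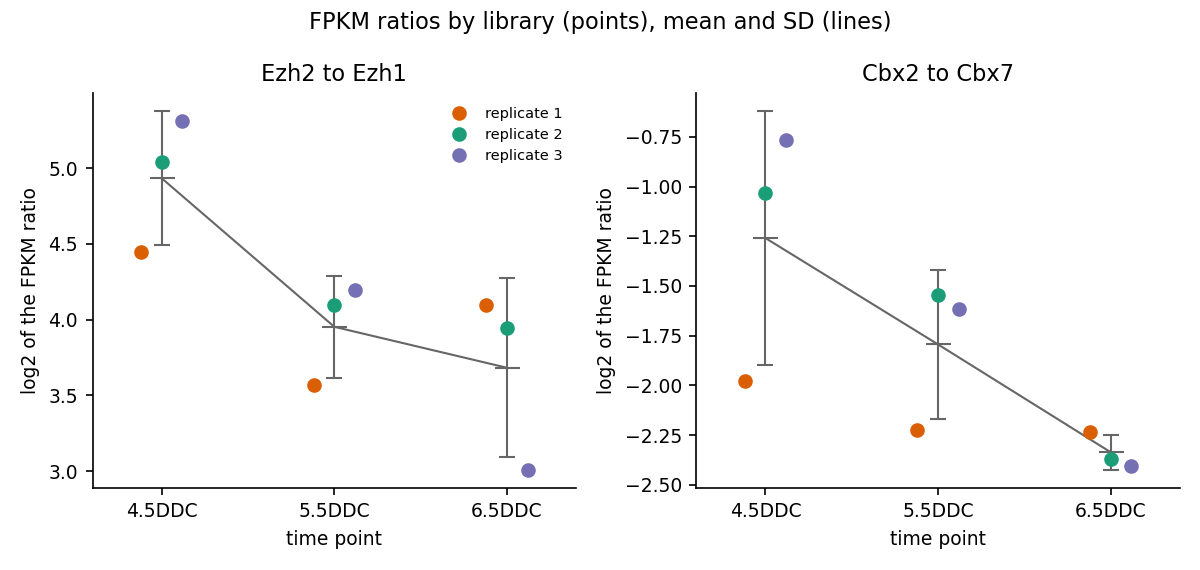
The log2 FPKM ratio of Ezh2 to Ezh1 (left) and of Cbx2 to Cbx7 (right) is plotted against the time point, with a point per library coloured by replicate number and the mean with its SD in grey. The libraries of 4.5DDC are above all others on the left, and replicate 1 of 4.5DDC, at −1.98, lies among the later libraries on the right.

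Eed, the subunit of PRC2 that reads its own mark, was expressed at a lower level than Ezh2 in every library. It measured 30.02, 32.2 and 35.3 FPKM at 4.5DDC, 22.6, 20.7 and 18.7 at 5.5DDC, and 24.6, 17.9 and 15.8 at 6.5DDC. All libraries of 4.5DDC were above the rest, and replicate 1 was the highest library of both later time points. The whole-span fall was 0.75 (SE 0.19, adjusted p = 0.0255), or 0.24, 0.79 and 1.28 inside replicate numbers 1 to 3, and replicates 2 and 3 together gave −1.04 (adjusted p = 0.00333). The call did not survive the removal of replicate 2 or 3 of 4.5DDC (adjusted p = 0.0714 and 0.0753), of replicate 2 or 3 of 6.5DDC (0.097 and 0.065) or a fit of the 6 libraries compared (0.0531), among 21 alternatives with adjusted p from 0.00333. The log2 fold change was −0.69 in the first interval (SE 0.19, adjusted p = 0.18) and −0.06 in the second (0.891), and the first step was −0.41, −0.65 and −1.002 inside replicate numbers 1 to 3. That step passed the test in replicates 2 and 3 only (−0.83, adjusted p = 0.0425), where the close pair of 5.5DDC enters directly, and under DESeq2 (0.0443).

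Suz12, the scaffold of PRC2, showed no such fall. Its level was 63.6, 62.9 and 86.6 FPKM at 4.5DDC, 64.2, 56.7 and 62.5 at 5.5DDC, and 66.9, 66.5 and 59.9 at 6.5DDC. Apart from replicate 3 of 4.5DDC, the libraries lay within a narrow band and the time points overlapped. From first to last time point the log2 fold change came to −0.15 (SE 0.15, adjusted p = 0.518), with 0.00, 0.19 and −0.61 within replicates 1 to 3, and −0.01 without replicate 3 of 4.5DDC. The order of mean levels within PRC2 was Ezh2, Suz12, Eed and Ezh1 at each time point, and the libraries of neighbours in that order did not overlap at 4.5DDC, 5.5DDC or 6.5DDC.

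The promoters of the 4 core PRC2 genes are shown because 2 of them, Ezh2 and Eed, fell over the whole span while the other 2 did not pass the test. The sequences are from RefSeq on GRCm38.p6, on the strand of the gene, and run from 250 bases before to 30 bases after the annotated start. Capitals mark 3 motifs searched on both strands in this window: E2F-type letters (TTTCCCGC, TTTCGCGC, TTTGCCGC or TTTGGCGC), the CCAAT box (CCAAT) and the letters of the cell cycle homology region (TTTGAA). The windows lie at chr6:47595001-47595280 on the minus strand for Ezh2, chr7:89980947-89981226 on the minus strand for Eed, chr11:79992856-79993135 on the plus strand for Suz12 and chr11:101226434-101226713 on the minus strand for Ezh1.
Ezh2: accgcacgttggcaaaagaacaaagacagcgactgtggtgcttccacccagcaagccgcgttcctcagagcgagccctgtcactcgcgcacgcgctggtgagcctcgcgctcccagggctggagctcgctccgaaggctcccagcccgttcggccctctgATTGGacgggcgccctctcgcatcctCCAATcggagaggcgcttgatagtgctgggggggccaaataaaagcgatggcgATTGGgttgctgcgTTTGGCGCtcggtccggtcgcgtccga
Eed: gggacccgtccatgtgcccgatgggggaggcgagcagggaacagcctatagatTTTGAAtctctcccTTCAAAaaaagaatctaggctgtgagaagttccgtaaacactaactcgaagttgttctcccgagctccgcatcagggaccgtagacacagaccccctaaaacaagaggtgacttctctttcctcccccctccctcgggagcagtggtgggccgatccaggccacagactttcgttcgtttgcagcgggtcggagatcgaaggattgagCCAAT
Suz12: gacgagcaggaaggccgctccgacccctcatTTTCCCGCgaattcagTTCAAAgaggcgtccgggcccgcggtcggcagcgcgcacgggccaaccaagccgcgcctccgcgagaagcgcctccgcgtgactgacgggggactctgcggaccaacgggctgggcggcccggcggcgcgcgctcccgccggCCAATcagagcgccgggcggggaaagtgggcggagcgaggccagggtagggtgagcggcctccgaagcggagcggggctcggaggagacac
Ezh1: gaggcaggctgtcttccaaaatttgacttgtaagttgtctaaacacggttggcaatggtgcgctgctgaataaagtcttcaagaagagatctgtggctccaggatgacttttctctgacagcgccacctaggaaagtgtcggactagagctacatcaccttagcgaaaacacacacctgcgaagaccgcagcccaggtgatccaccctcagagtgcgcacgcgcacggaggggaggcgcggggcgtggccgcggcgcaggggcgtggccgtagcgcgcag

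The E2F-type letters were present in 2.12% of 32851 promoters, the CCAAT box in 36.1% and TTTGAA in 17.2%. Ezh2 held TTTGGCGC from base 4 after the start and 3 CCAAT boxes, and Suz12 held TTTCCCGC 219 bases before the start with 1 CCAAT box and 1 TTTGAA. Eed held 2 matches to TTTGAA and 1 CCAAT box, and Ezh1 held none of the 3 motifs. Of the PRC1 genes with an entry, Cbx7 and Cbx8 held 1 and 2 CCAAT boxes, Cbx7 held 1 TTTGAA, and Bmi1 and Cbx6 held none of the 3. Promoters were matched for 8 of the 9 genes, Cbx2 being the other. The E2F-type letters occurred in a gene that fell and in one that did not pass the test, and a match describes letters only.

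In PRC1, Bmi1, a RING-finger subunit also known as a repressor of the Ink4a/Arf locus, did not pass the test in any pair of time points. It measured 41.4, 37.5 and 44.2 FPKM at 4.5DDC, 32.3, 30.6 and 32.6 at 5.5DDC, and 39.1, 32.0 and 29.3 at 6.5DDC. The libraries of 5.5DDC were all below those of 4.5DDC, and replicate 1 of 6.5DDC was back at the earlier level. The log2 fold change was −0.42 in the first interval (SE 0.15, adjusted p = 0.245), 0.14 in the second (SE 0.15, adjusted p = 0.639) and −0.28 over the whole span (SE 0.15, adjusted p = 0.208). With replicates 2 and 3 only, the whole-span value was −0.43 (adjusted p = 0.076).

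Cbx2, a chromodomain protein that compacts nucleosomes, had the smallest adjusted p of the 9 genes. Its FPKM was 21.9, 28.4 and 24.7 at 4.5DDC, 18.1, 18.3 and 20.9 at 5.5DDC, and 13.0, 11.5 and 12.1 at 6.5DDC. The 3 time points separated completely, each below the one before. The whole-span fall was 1.04 (SE 0.14, adjusted p = 0.00224), with 0.67, 1.27 and 1.16 inside replicate numbers 1 to 3 and 1.22 in the fit of replicates 2 and 3 (adjusted p = 0.000947). The call held in all 21 alternatives, with adjusted p up to 0.0154. The log2 fold change was −0.44 in the first interval (SE 0.14, adjusted p = 0.207) and −0.60 in the second (SE 0.14, adjusted p = 0.111), and the second step was −0.39, −0.61 and −0.80 inside replicate numbers 1 to 3. That step passed the test in replicates 2 and 3 only (−0.71, adjusted p = 0.0344), again with the close pair of 5.5DDC, and under DESeq2 (0.0117), with adjusted p up to 0.411 in the other alternatives.

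Cbx6, a chromodomain paralog that is expressed in mature neurons, moved the other way. It measured 8.61, 7.59 and 7.01 FPKM at 4.5DDC, 13.0, 10.7 and 11.9 at 5.5DDC, and 8.32, 10.2 and 15.5 at 6.5DDC. All libraries of 5.5DDC were above those of 4.5DDC, but replicate 1 of 6.5DDC lay below the highest library of 4.5DDC. In counts, the log2 fold change was 0.555 in the first interval (SE 0.18, adjusted p = 0.208) and 0.035 in the second (adjusted p = 0.933). Inside replicate numbers 1 to 3 the first step was 0.66, 0.30 and 0.70, and the second was −0.40, 0.06 and 0.38. The whole-span rise was 0.59 (SE 0.18, adjusted p = 0.0466), with 0.27, 0.35 and 1.08 inside replicate numbers 1 to 3 and 0.73 in the fit of replicates 2 and 3 (adjusted p = 0.0241). The direction was the same in all 21 alternatives, but the call held in 7 of them. It was lost without replicate 1, 2 or 3 of 4.5DDC (adjusted p = 0.0929, 0.0882 and 0.116), without replicate 2 or 3 of 5.5DDC (0.0706 and 0.0764), without replicate 2 or 3 of 6.5DDC (0.0923 and 0.118) and on FPKM in place of counts (0.159 and 0.165 with pseudocounts of 0.1 and 1). Scaling to library totals (0.064), voom on those totals (0.0782), the omission of the filter (0.0507), replicate numbers as blocks (0.0599) and a fit of the 6 libraries compared (0.0798) ended it too, and the range over the alternatives was 0.0173 to 0.165. On the annotation, 5.31% of its exonic bases are shared with Npcd on the same strand.

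Cbx7, which reads the H3K27 mark in pluripotent cells, had the highest level of the 4 Cbx genes in every library. It measured 86.1, 58.0 and 42.1 FPKM at 4.5DDC, 84.6, 53.4 and 64.0 at 5.5DDC, and 61.2, 59.3 and 64.1 at 6.5DDC. Replicate 1 was the highest library at 4.5DDC and 5.5DDC, and the spread at 4.5DDC (62.1 ± 22.3, SD, n = 3) was larger than the distance between any of the means. Its whole-span value came to −0.06 on the log2 scale (SE 0.24, adjusted p = 0.878), and to −0.46 and −0.20 within replicates 1 and 2 and 0.65 within replicate 3. Across the alternatives it ran from −0.29 to 0.24, so no direction can be given.

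Cbx8 was the least abundant of the 9 genes by mean FPKM at every time point, with libraries that overlapped those of Ezh1. It measured 4.91, 4.00 and 3.24 FPKM at 4.5DDC, 8.09, 4.46 and 5.51 at 5.5DDC, and 4.46, 2.70 and 6.26 at 6.5DDC. The time points overlapped in every pair. Its whole-span log2 fold change came to −0.10 (SE 0.23, adjusted p = 0.794) and ran from −0.20 to 0.08 across the alternatives.

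By mean FPKM, the order at 4.5DDC was Ezh2, Suz12, Cbx7, Bmi1, Eed, Cbx2, Cbx6, Ezh1 and Cbx8, with overlapping libraries between Suz12 and Cbx7, Cbx7 and Bmi1, and Ezh1 and Cbx8. At 5.5DDC Cbx7 stood before Suz12, and the neighbours that overlapped were Ezh2 and Cbx7, Cbx7 and Suz12, Eed and Cbx2, and Ezh1 and Cbx8. At 6.5DDC the order was that of 4.5DDC again, and Suz12 overlapped Cbx7, while Cbx2, Cbx6, Ezh1 and Cbx8 each overlapped the next.

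**Figure D2:**
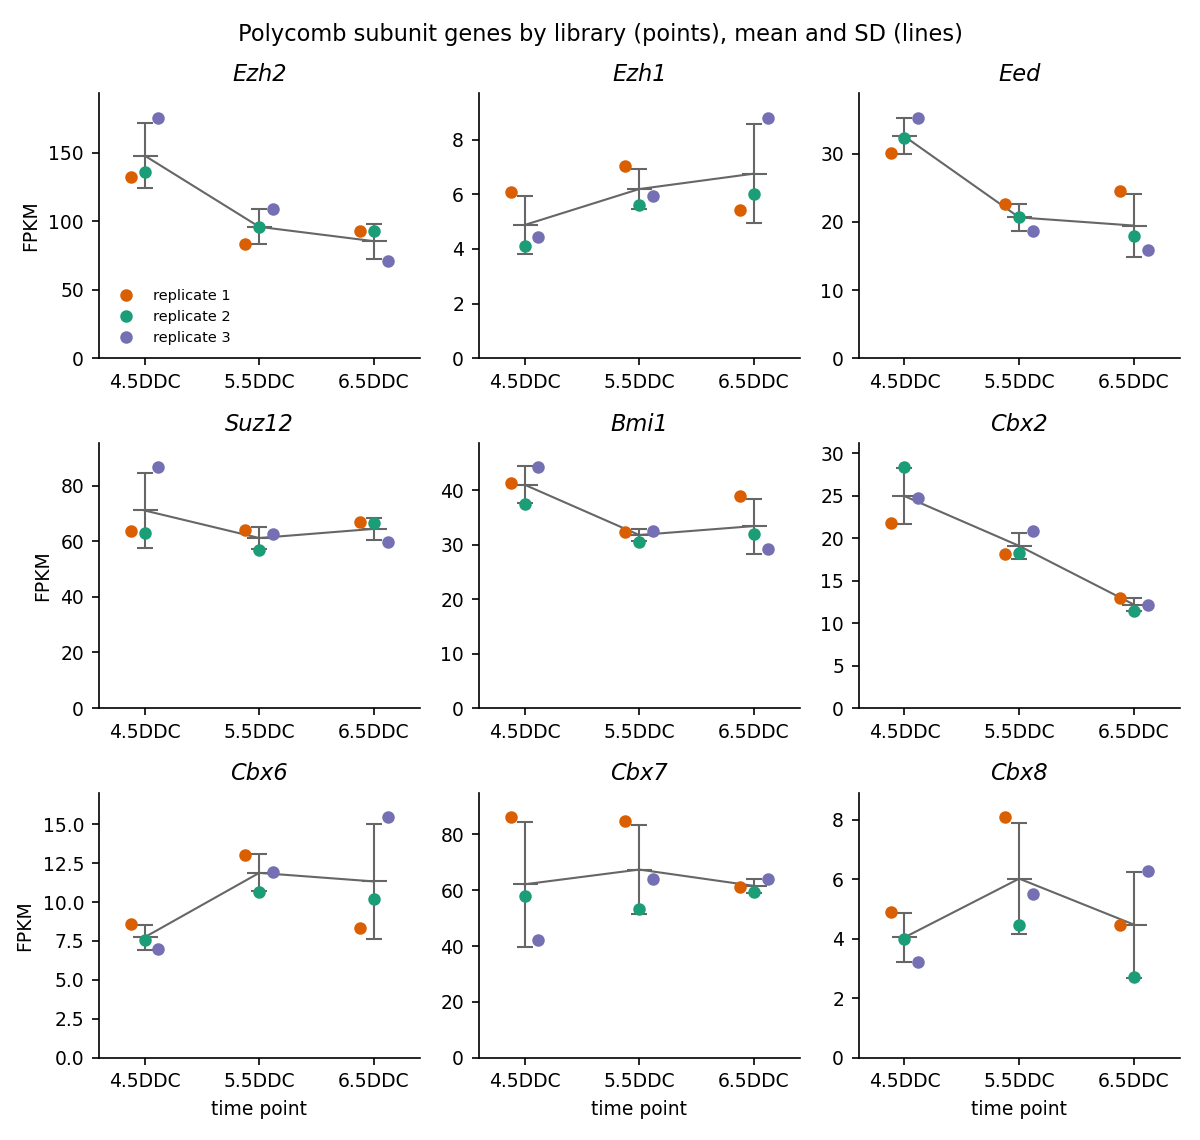
The FPKM of each of the 9 genes is plotted against the time point, 1 panel per gene, with a point per library coloured by replicate number and the mean with its SD in grey. The points of Ezh2, Eed and Cbx2 at 6.5DDC are all below those at 4.5DDC, whereas those of Ezh1, Suz12, Bmi1, Cbx6, Cbx7 and Cbx8 overlap.

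The balance within the Cbx family was described by the share of each gene in the summed FPKM of Cbx2, Cbx6, Cbx7 and Cbx8, without a test. Cbx7 made up 61.6% ± 8.38 (SD, n = 3) of the sum at 4.5DDC, 64.1% ± 3.68 at 5.5DDC and 68.9% ± 3.00 at 6.5DDC. Cbx2 made up 26.3% ± 7.40, 18.7% ± 3.55 and 13.7% ± 1.29, and the share of Cbx6 was 7.98% ± 1.02, 11.5% ± 0.898 and 12.5% ± 3.12. Cbx8 accounted for 4.11% ± 0.0828, 5.68% ± 0.745 and 4.92% ± 1.60. The sum itself was 98.8 ± 22.2 FPKM at 4.5DDC, 104 ± 18.6 at 5.5DDC and 89.5 ± 7.46 at 6.5DDC, which overlapped. By library, the share of Cbx2 was 18.0%, 29.0% and 32.1% at 4.5DDC, 14.6%, 21.1% and 20.4% at 5.5DDC, and 14.9%, 13.7% and 12.4% at 6.5DDC, so that at 4.5DDC and 5.5DDC replicate 1 had the smallest share. At 6.5DDC the mean levels of Cbx2 and Cbx6, 12.2 ± 0.763 and 11.3 ± 3.70 FPKM, came from libraries that overlapped, whereas at 4.5DDC and 5.5DDC every library had Cbx2 above the highest Cbx6 value of that time point. The order of these 2 at 6.5DDC depended on single libraries, with Cbx6 above Cbx2 in replicate 3 only (15.8% against 12.4% of the sum). Without replicate 1 the mean share of Cbx6 was the larger (13.98% against 13.05%). The order also depended on the correction for length: on TMM-scaled CPM the share of Cbx6 was 12.6%, 18.5% and 21.5% at the 3 time points and that of Cbx2 34.1%, 24.7% and 18.7%.

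**Figure D3:**
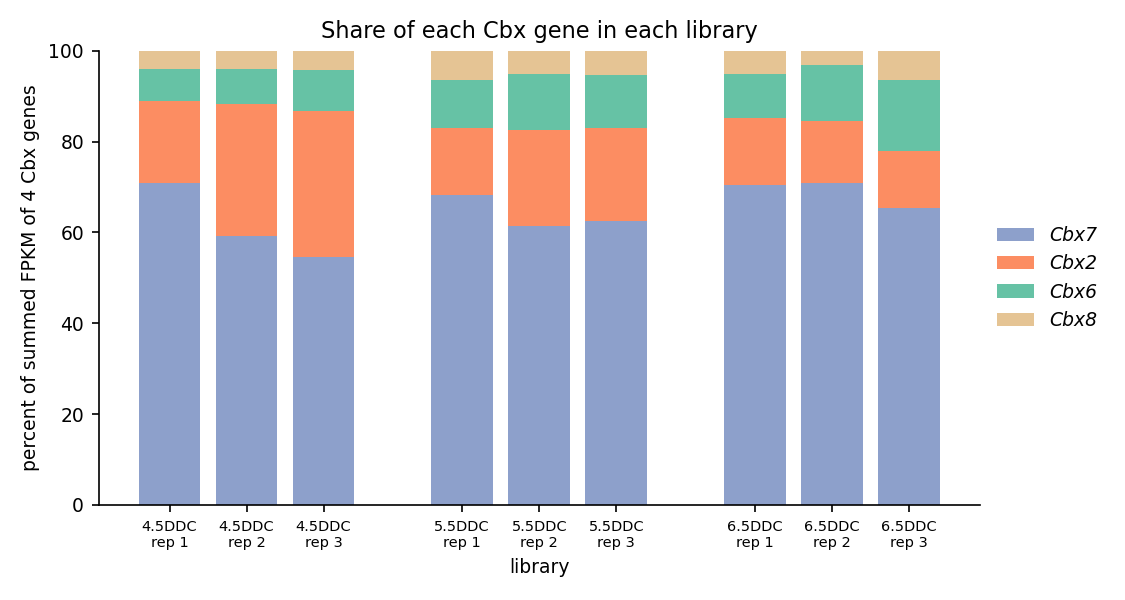
Each bar is a library and is divided by the percent of the summed FPKM of 4 Cbx genes that each gene contributes, with the libraries ordered by time point and replicate. Cbx7 fills between 54.6% and 70.9% of each bar, and the Cbx2 part is 12.4% to 14.9% at 6.5DDC.

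The FPKM ratio of Cbx2 to Cbx7 was 0.254, 0.489 and 0.587 at 4.5DDC, 0.214, 0.343 and 0.327 at 5.5DDC, and 0.212, 0.194 and 0.189 at 6.5DDC. The values of 6.5DDC lay below all earlier ones, and replicate 1 was the lowest library of both earlier time points. The difference in the mean log2 ratio was −1.08 over the whole span, and inside replicate numbers 1 to 3 it was −0.25, −0.51 and −0.85 over the first interval and −0.01, −0.82 and −0.79 over the second. Across the 3 time points the exact permutation test gave p = 0.075 (0.075 adjusted over the 2 ratios). Without replicate 1 of 4.5DDC the p was 0.00357 (0.00714 adjusted), the smallest of the alternatives, whose adjusted p ran up to 0.129. Of the 4 genes, Cbx2 and Cbx8 are neighbours on chromosome 11, 5.03 kb apart and on opposite strands, and Cbx6 and Cbx7 lie 81.1 kb apart on chromosome 15, and in neither pair did both genes change.

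In the interval from 4.5DDC to 5.5DDC, none of the 9 genes passed the test, against 0.0746% of all genes (11 of 14742), although the p before adjustment was under 0.05 for 5 of the 9, against 15.4% of genes. When replicate numbers were modelled as blocks, 1.44% of genes (212) were called in this interval and again none of the 9. DESeq2 called 1 of the 9, Eed, against 3.36% of genes, and the fit of replicates 2 and 3 called the same 1, against 3.31%. The libraries of these time points did not overlap in FPKM for 5 of the 9 (Ezh2, Eed, Bmi1, Cbx2 and Cbx6), against 23.8% of genes. From 5.5DDC to 6.5DDC, none of the 9 passed, against 0.224% of genes (33), 1 had p under 0.05 before adjustment, against 18.5% of genes, and the libraries of 1, Cbx2, did not overlap, against 24.0% of genes. The block called 1.32% of genes (195) in that interval and none of the 9. DESeq2 called 1 of the 9, Cbx2, against 4.49% of genes, and replicates 2 and 3 gave the same 1, against 4.97%. Over the whole span, the libraries of 3 of the 9 (Ezh2, Eed and Cbx2) did not overlap, against 34.5% of genes. The contrast between the changes of the 2 intervals called 0 genes in all (0%), with 701 at an unadjusted p under 0.05 and none of the 9 among these, and also called 0 with the block. The median log2 fold change of the 9 genes over the whole span was −0.15, beside 0.00 for all genes tested.

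**Figure D4:**
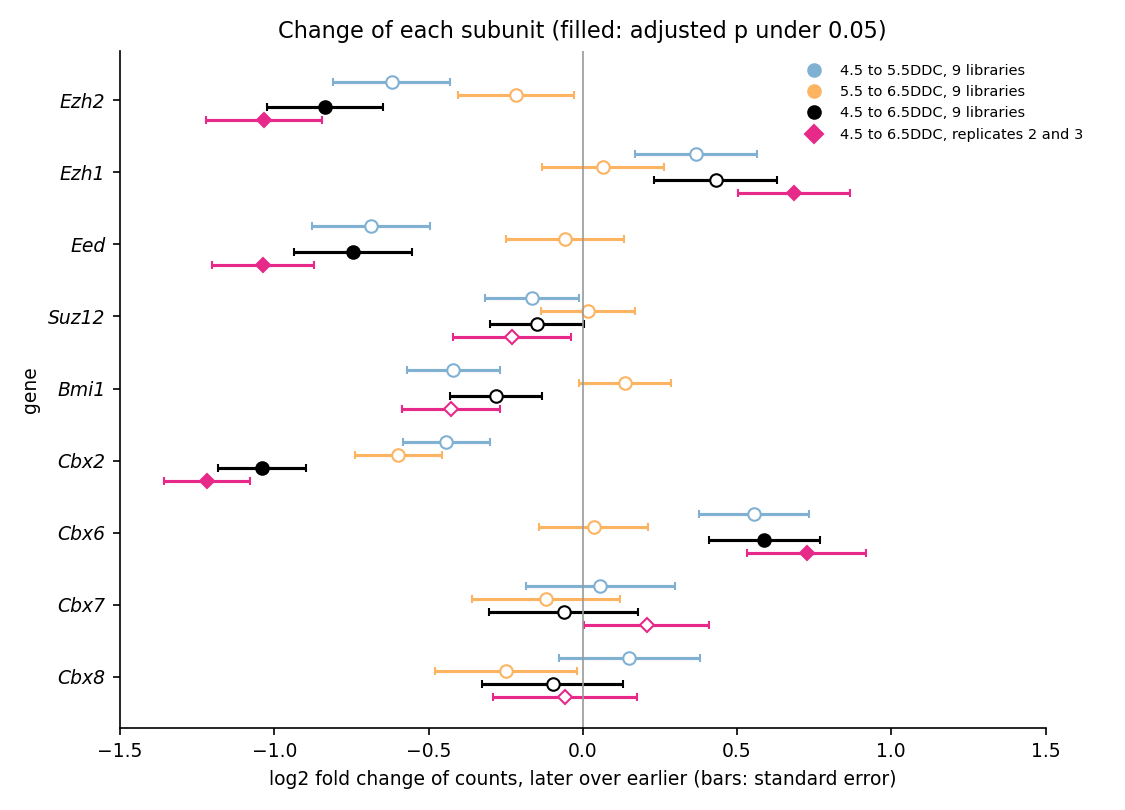
The log2 fold change of the counts of each gene is plotted with its SE for each interval and for the whole span over 9 libraries, and for the whole span in replicates 2 and 3 only. Filled symbols have an adjusted p under 0.05, which over 9 libraries are Ezh2 (−0.84), Eed (−0.75), Cbx2 (−1.04) and Cbx6 (0.59), all for the whole span.

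Of the other 46 genes of the Polycomb system that were listed, all were tested and none passed in either interval. The unadjusted p was under 0.05 for 4 in the first and 10 in the second, against 15.4% and 18.5% of all genes. Over the whole span 3 rose and 3 fell, against 9.21% and 9.53% of all genes, so 6 of 46 changed where 18.7% of all genes did, and the median log2 fold change was −0.13. In replicates 2 and 3 only, 5 rose and 4 fell, against 31.3% of genes in either direction. E130012A19Rik (Epop), a partner of PRC2 that links it to elongin, fell by 1.78 (SE 0.33, adjusted p = 0.00768), from 5.46 ± 1.80 FPKM (SD, n = 3) at 4.5DDC to 2.72 ± 0.785 at 5.5DDC and 1.61 ± 0.430 at 6.5DDC, and the call held in all 21 alternatives, with adjusted p up to 0.0369. In variant PRC1, Kdm2b, which brings the complex to unmethylated CpG islands, fell by 0.83 (SE 0.24, adjusted p = 0.0402), and L3mbtl2, a subunit of the Pcgf6 form, by 0.81 (SE 0.21, adjusted p = 0.0259). Phc3, a polyhomeotic subunit of canonical PRC1, rose by 0.66 (SE 0.18, adjusted p = 0.0339), Mbd5, a partner of the PR-DUB deubiquitinase, by 0.54 (SE 0.14, adjusted p = 0.0269), and Lcor, which encodes a PRC2 partner, by 0.51 (SE 0.15, adjusted p = 0.0456). The value of Lcor is for the gene symbol as a whole and cannot be given to that partner alone.

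The last 5 of these calls depended on single libraries or on the processing. Each of them disappeared without replicate 2 of 4.5DDC (adjusted p = 0.142 for Kdm2b, 0.0987 for L3mbtl2, 0.109 for Phc3, 0.0959 for Mbd5 and 0.15 for Lcor) and without replicate 2 of 6.5DDC (0.121, 0.0976, 0.125, 0.0875 and 0.167 in the same order). Without these libraries the calls over all genes also dropped, from 2763 to 1152 and 1125, so such losses are not particular to these genes. Kdm2b was also lost without replicate 3 of 4.5DDC (0.0593), replicates 2 or 3 of 5.5DDC (0.0596 and 0.0604) or replicate 1 of 6.5DDC (0.0724), and L3mbtl2 without replicate 3 of 6.5DDC (0.0688). Leaving out replicate 1 of 4.5DDC, replicate 2 or 3 of 5.5DDC or replicate 3 of 6.5DDC ended the calls of Phc3 (0.0568, 0.056, 0.0576 and 0.0767), Mbd5 (0.0677, 0.0525, 0.0533 and 0.0722) and Lcor (0.0757, 0.0767, 0.0783 and 0.0845), and Lcor was lost as well without replicate 3 of 4.5DDC (0.0504) or replicate 1 of 5.5DDC (0.0518). In all, Kdm2b was called in 9 of 21 alternatives, L3mbtl2 in 15, Phc3 in 12, Mbd5 in 14 and Lcor in 8. The log2 fold changes kept their sign without 1 library. They ran from −1.08 to −0.63 for Kdm2b, −1.04 to −0.66 for L3mbtl2, 0.50 to 0.79 for Phc3, 0.46 to 0.63 for Mbd5 and 0.38 to 0.60 for Lcor. On FPKM in place of counts L3mbtl2 gave only −0.32 to −0.33 (adjusted p = 0.503). By list, the genes that rose and fell were 1 and 1 of 10 PRC2 partners, 1 and 0 of 9 canonical PRC1 genes, 0 and 2 of 16 variant PRC1 genes, 1 and 0 of 8 PR-DUB genes and 0 and 0 of 3 H3K27 demethylases. In the last list, Uty, with 0.52 (SE 0.17, adjusted p = 0.0633), passed in 4 of 21 alternatives, among them replicates 2 and 3 only (0.58, adjusted p = 0.0364). The most abundant was Rbbp7, a histone-binding partner of PRC2, at 190 ± 12.4, 176 ± 12.8 and 179 ± 69.3 FPKM.

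**Figure D5:**
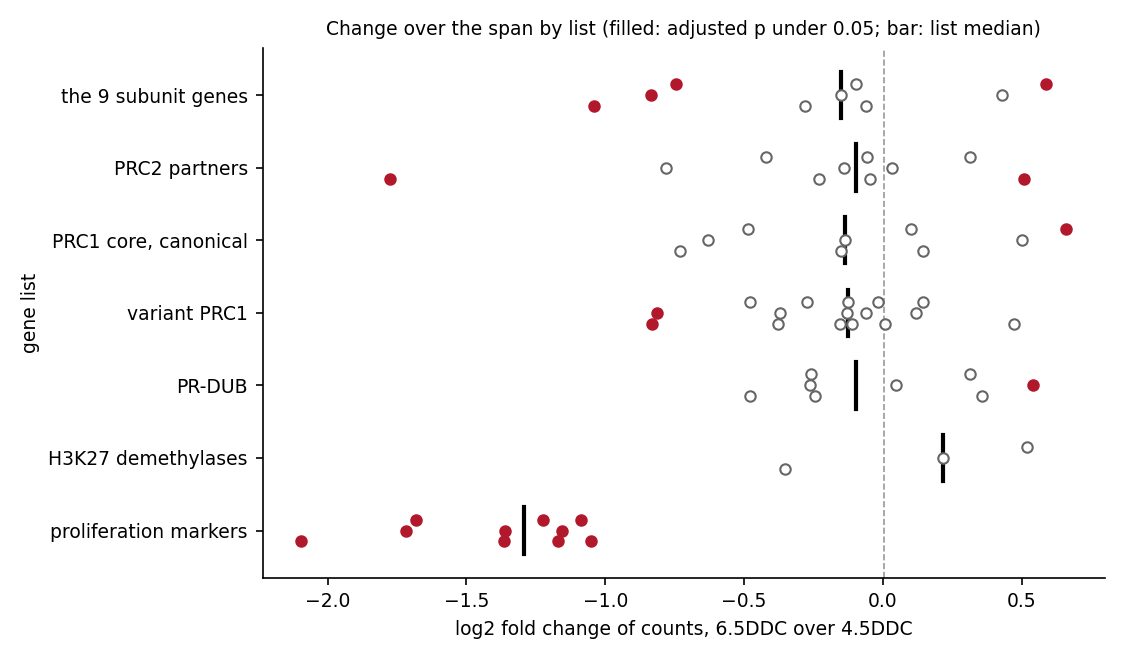
Each circle is a gene, placed by its log2 fold change from 4.5DDC to 6.5DDC and grouped by list, filled where the adjusted p is under 0.05, with a black bar at the median of the list and a dashed line at the median of all genes. The 10 proliferation markers lie between −2.10 and −1.05, below the median of the 9 subunit genes at −0.15.

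Markers of dividing cells fell, as did Ezh2, Eed and Cbx2. All 10 of 10 proliferation markers fell over the whole span, with a median of −1.29 and a range from −2.10 (Mcm5) to −1.05. Their summed FPKM was 1211, 1468 and 1521 in replicates 1 to 3 of 4.5DDC, 831, 1036 and 1036 at 5.5DDC, and 762, 598 and 405 at 6.5DDC. The most abundant, Top2a, went from 309 ± 38.6 to 240 ± 54.3 and 140 ± 43.1 FPKM. Top2a was no longer called without replicate 3 of 4.5DDC or replicate 2 of 6.5DDC (adjusted p = 0.0516 and 0.0519), nor were 2 other genes of the list without the latter (0.0527 and 0.0535). Replicate 1 had the lowest sum at 4.5DDC and 5.5DDC and the highest at 6.5DDC, and the FPKM of Ezh2 and Cbx2 had the same order. That order rests in part on near ties. Ezh2 measured 93.0 and 92.7 in replicates 1 and 2 of 6.5DDC, and Cbx2 18.1 and 18.3 in those of 5.5DDC. For Eed, replicate 1 was instead the highest library at 5.5DDC (22.6 FPKM against 20.7 and 18.7). Their part in the result was not tested.

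Of 9 markers of postmitotic neurons, 1 rose (Map2, by 1.65, SE 0.31, adjusted p = 0.00768), and in replicates 2 and 3 only 4 rose. Their summed FPKM was 225, 547 and 380 at 4.5DDC, 194, 636 and 660 at 5.5DDC, and 346, 780 and 799 at 6.5DDC, so replicate 1 was the lowest library at each time point, and their most abundant gene over all libraries, Stmn2, averaged 67.4, 97.6 and 160 FPKM without passing the test. Nefm was above it at the first and second time point, with 99.9, 110 and 91.2 FPKM, and did not pass either (−0.14, adjusted p = 0.888). Of 7 tested markers of radial glia and glial precursors, 4 rose (Slc1a3 by 1.74, SE 0.18, adjusted p = 0.00102, and Nfia, Nfib and Aldh1l1), while Gfap, the other gene of that list, stayed under 1 FPKM. Olig2 ran the other way without passing (−2.89, SE 1.19, adjusted p = 0.115), with 0.564, 9.97 and 4.45 FPKM at 4.5DDC, 0.132, 1.96 and 1.72 at 5.5DDC, and 0.0533, 0.528 and 1.44 at 6.5DDC. In replicates 2 and 3 only, 6 of the 7 rose and Olig2 fell (−2.91, adjusted p = 0.00399). The sum, most of it Fabp7, was 174, 475 and 534 at 4.5DDC, 311, 681 and 696 at 5.5DDC, and 734, 1002 and 833 at 6.5DDC. Their part in the result was not tested.

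Of 10 progenitor markers, Prom1, the gene of the sorted surface protein, rose by 1.19 (SE 0.18, adjusted p = 0.00363), Sox3 fell by 1.80 (SE 0.50, adjusted p = 0.033) and Nkx6-1 by 1.14 (SE 0.28, adjusted p = 0.022), and the most abundant, Vim, averaged 1568, 2044 and 1761 FPKM. Both falls were lost without replicate 2 of 4.5DDC (adjusted p = 0.125 for Sox3 and 0.0833 for Nkx6-1) or replicate 2 of 6.5DDC (0.118 and 0.0802), and that of Sox3 without replicate 1 of 6.5DDC (0.0666), on FPKM with pseudocounts of 0.1 and 1 (0.05003 and 0.0565) and with voom on library totals (0.0673). In replicates 2 and 3 only, 1 rose and 3 fell. Pluripotency markers summed to between 0.393 and 2.28 FPKM in any library, and 5 of 6 stayed under 1 FPKM throughout. Their most abundant gene by the mean over all libraries was Dppa5a, on 0 to 3 counts per library, though Esrrb was above it at 5.5DDC (0.302 against 0.287 FPKM). Of 6 tested endoderm markers none passed over 9 libraries, 1 rose and 1 fell of the 5 tested in replicates 2 and 3 only, and the sum was 53.7, 31.5 and 34.0 FPKM at 4.5DDC, 49.7, 45.7 and 49.5 at 5.5DDC, and 70.7, 42.7 and 40.3 at 6.5DDC, most of it Foxa1, which ventral midline cells of the neural tube also express. Neural crest and mesenchyme markers summed to between 6.70 and 24.7 FPKM, 1 of 6 tested rose (Twist1, by 0.74, SE 0.19, adjusted p = 0.0276), and Sox10 and Foxd3 were at or near 0 in every library. In replicates 2 and 3 only, 2 others rose and Twist1 did not pass (0.0686). Its call was also lost in the fit of the 6 libraries compared (0.0509), without replicate 1, 2 or 3 of 4.5DDC (0.077, 0.0714 and 0.0609), without replicate 2 of 5.5DDC (0.0544) and without replicate 1 or 2 of 6.5DDC (0.0531 and 0.0792).

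The genes most like 5 of the subunit genes were sought among 10087 genes outside the Polycomb lists whose mean FPKM was 5 or more, by Pearson's r of log2 TMM-scaled CPM over the 9 libraries, which share the trend with time and the replicate numbers. For Cbx2 they were Pola2 (r = 0.993), a subunit of the DNA polymerase alpha-primase complex, Dnmt1 (0.987), the maintenance DNA methyltransferase, and Uhrf1 (0.986), its partner at replicated DNA, which fell by 1.42, 1.48 and 2.36 over the whole span. For Ezh2 they were Supt16 (0.995), a subunit of the histone chaperone FACT, Tardbp (0.995), an RNA-binding protein, and Rbbp8 (0.992), a factor of DNA end resection, which fell by 0.85, 0.68 and 0.82. Eed was most like Nsmce4a (0.986), 2810004N23Rik (0.980) and Tsr1 (0.980), Ezh1 most like Ttll3 (0.978), Rsph3a (0.970) and Abcd4 (0.969), and Cbx6 most like Cnppd1 (0.980), Nkain4 (0.976) and Tbc1d16 (0.967). Nsmce4a and Tsr1 fell, and none of those for Ezh1 or Cbx6 passed the test over 9 libraries.

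On GRCm38, GENCODE M21 places Ezh2 (ENSMUSG00000029687.16) at chr6:47530139-47595341, Eed (ENSMUSG00000030619.9) at chr7:89954654-89980983, Ezh1 (ENSMUSG00000006920.14) at chr11:101191115-101226463, Cbx8 (ENSMUSG00000025578.9) at chr11:119036305-119040969, Cbx6 (ENSMUSG00000089715.12) at chr15:79823896-79834688 and Cbx7 (ENSMUSG00000053411.16) at chr15:79915807-79971119, all on the minus strand. Suz12 (ENSMUSG00000017548.15) at chr11:79993106-80034123, Bmi1 (ENSMUSG00000026739.13) at chr2:18677018-18686629 and Cbx2 (ENSMUSG00000025577.7) at chr11:119022962-119031270 are on the plus strand. Exons of a gene on the opposite strand cover 6.82% of the exonic bases of Eed, 3.60% of those of Suz12, 2.61% of those of Ezh2 and 1.54% of those of Cbx7, and reads of such stretches cannot be told apart if the counting did not use strand.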

How the data were processed

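RNA of prominin-1-sorted progenitors at 3 time points was analysed, 3 libraries each. By the submitters' processing notes, reads were handled with bcl2fastq 1.8.3 and CASAVA, mapped with TopHat2 2.0.4 to GRCm38 (mm10), and processed with HTSeq 0.6.1, Cufflinks 2.1.1 and limma, while the annotation release and the use of strand are not given in the sources used here. The authors deposited a count per gene without normalization, and since 98 of 38197 symbols (none of the 9) hold values that are not whole, the deposited values were treated as estimated counts and rounded, although whole counts had been planned for. The deposited FPKM values, which the authors computed with Cufflinks, were used as levels. The authors' log2 table was not used.

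The tests were run in R 4.3.3 with DESeq2 1.42.0, limma 3.58.1 and edgeR 4.0.16, and the tables and plots used scipy 1.17.1, Python 3.11.15, matplotlib 3.10.9, pandas 2.3.3 and numpy 2.4.6. filterByExpr kept 14742 genes, and TMM factors lay between 0.951 and 1.04 (a median log2 fold change of all genes of 0.00 over the whole span). All 9 libraries entered 1 quasi-likelihood fit with a factor for time, leaving 6 residual degrees of freedom. With 3 libraries per time point, a gene that did not pass may still have changed. A floor of 3 counts corresponds to 0.118 to 0.271 CPM (library-scaled counts), which covers counting error only. Changes within a replicate number are differences of log2 TMM-scaled CPM with a prior count of 1.

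The members and the gene lists were chosen with earlier results of these data known. The genes named by rule are the 9 members, list genes with an adjusted p under 0.05 in any pair (up to 25 for the wider Polycomb list and 6 per other list), the most abundant gene of each list and the 3 genes most like each of 5 members. Outside this rule and with the results known, Uty, Olig2, Nefm, Cdkn2a and Cbx5 are named beside the counts of their lists, and Gfap, Sox10 and Foxd3 as markers near 0. The 21 alternatives per comparison were other scalings, filters and tools, FPKM with pseudocounts of 1 and 0.1, the 6 libraries compared, a replicate block, replicates 2 and 3 only and each library left out. After subtraction of time-point means, libraries of the same number correlated by 0.739, 0.384 and 0.446 for 4.5DDC with 5.5DDC and by 0.454, 0.356 and 0.199 for 5.5DDC with 6.5DDC, all over 0.1, so the label's number was treated as pairing adjacent time points. Unlike numbers 2 and 3 of adjacent time points correlated as well, by 0.227 to 0.399, so the values separate replicate 1 from the others more than 2 from 3. Kmt2d and Tubb3 of the lists are not analysed here, and older symbols were matched through RefSeq synonyms.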

Additional observations from a re-analysis of the deposited data

How the results depend on the processing

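The calls of Cbx2 and Ezh2 over the whole span held in all 21 alternatives, and no call of a member was reversed. The fit of 6 libraries called 2 of the 9 over the whole span, against 13.4% of all genes, and fits without 1 library called 2 to 4. In each of the shorter intervals, DESeq2 and replicates 2 and 3 only called 1 of the 9. The 6 calls in the wider Polycomb list over the whole span became 1 with 6 libraries, 2 on FPKM with either pseudocount and 1 to 7 without 1 library. All genes called from 4.5DDC to 5.5DDC numbered 11, but 495 under DESeq2, 485 in replicates 2 and 3, 25 without the filter, 7 on FPKM with a pseudocount of 1, 1 with 6 libraries and 1 to 28 without 1 library. From 5.5DDC to 6.5DDC they numbered 33, but 662, 728, 78, 12 and 0 in the same settings, 55 on library totals, 0 on FPKM with a pseudocount of 0.1 and 0 to 196 without 1 library. Over the whole span they numbered 2763, but 4586 in replicates 2 and 3 and 1125 to 3132 without 1 library, 1152 without replicate 2 of 4.5DDC and 1125 without replicate 2 of 6.5DDC. The cause was not tested.

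The replicate block moved the calls to 212 and 195 in the shorter intervals. Between 4.5DDC and 6.5DDC the numbers did not pair the libraries (r = 0.38, −0.0271 and −0.196), and there the block called 3 of the 9, without Cbx6 (0.0599), against 23.2% of all genes. Among the lists, the block ended the call of Lcor (0.0574) and added Uty (0.0409) and Cdkn2a (0.0418), and it called 3 of 9 neuron markers, 7 of 7 of radial glia, Olig2 included, 3 of 6 of endoderm and 3 of 6 of neural crest and mesenchyme. It changed no other call of a member or list gene over the whole span. With the block, the exact test of the ratios gave p = 0.0833 for Ezh2 to Ezh1 and 0.0278 for Cbx2 to Cbx7 (0.0833 and 0.0556 adjusted). The p of the Ezh2 to Ezh1 ratio was 0.0214 with a pseudocount of 1 and 0.0214 to 0.111 without 1 library, and that of Cbx2 to Cbx7 was 0.00357 to 0.129 without 1 library. With replicates 2 and 3 only, 0.0667 is the smallest p possible, and both ratios gave it. Shares of the Cbx genes depended on the correction for length: on CPM they were 34.1%, 24.7% and 18.7% for Cbx2, 12.6%, 18.5% and 21.5% for Cbx6, and 49.95%, 53.2% and 56.2% for Cbx7 at the 3 time points, and 3.34% and 3.68% for Cbx8 at 4.5DDC and 5.5DDC. A pseudocount of 1 made the Cbx8 share 4.95% at 4.5DDC.

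Of the member values under the alternatives, 543 kept their side of the threshold, 19 lost the call and 5 gained it. The genes near 5 FPKM, Ezh1 and Cbx8, rest on 126 to 845 counts per library.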

Other observations

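The Ink4 and Cip/Kip inhibitors of cyclin-dependent kinases include classical targets of Polycomb. Over the whole span 1 of 7 rose and 1 fell, against 9.21% and 9.53% of all genes. On the log2 scale, Cdkn2b fell by 1.05 (standard error, SE, 0.27, adjusted p = 0.0249), from 5.08 ± 0.989 FPKM (SD, n = 3) at 4.5DDC to 3.25 ± 0.432 and 2.44 ± 0.523. Cdkn1b, the most abundant of the list, rose by 0.50 (SE 0.13, adjusted p = 0.0299), from 43.2 ± 1.53 FPKM to 54.5 ± 6.95 and 61.4 ± 7.31. Cdkn2a measured 14.0, 15.6 and 4.97 FPKM at 4.5DDC, 19.3, 9.88 and 7.84 at 5.5DDC, and 5.37, 3.09 and 4.67 at 6.5DDC, with a log2 fold change of −1.32 (SE 0.47, adjusted p = 0.0743), and was called in 4 of 21 alternatives. In replicates 2 and 3 only, 1 of the 7 rose and 2 fell, against 31.3% of genes in either direction. The call of Cdkn2b was lost without replicate 1 or 2 of 4.5DDC (0.0681 and 0.0786) or replicate 2 or 3 of 6.5DDC (0.081 and 0.0673), and in the fit of the 6 libraries compared (0.0618). That of Cdkn1b was lost without replicate 1, 2 or 3 of 4.5DDC (0.0598, 0.11 and 0.0522), replicate 2 of 5.5DDC (0.059) or replicate 2 or 3 of 6.5DDC (0.121 and 0.0593), and in the fit of the 6 libraries compared (0.0558).

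Of the 10 Trithorax and MLL/COMPASS genes, which act on histone H3 in opposition to Polycomb, 1 fell over the whole span and none rose, against 9.53% and 9.21% of all genes (3 fell in replicates 2 and 3 only, against 31.3% in either direction), with a median log2 fold change of −0.40. This was Setd1a, by 0.88 (SE 0.20, adjusted p = 0.0182), which was lost without replicate 2 of 4.5DDC (0.0594), without replicate 2 of 6.5DDC (0.0709) and on FPKM, where the libraries overlapped and the value shrank to −0.36 and −0.34 (0.244 and 0.247). The most abundant, Ash2l, went from 72.9 ± 3.74 FPKM to 57.5 ± 5.15 and 56.2 ± 7.99 and did not pass (adjusted p = 0.0946). Of the 3 HP1 genes, chromobox paralogs that bind another histone mark, Cbx1 fell by 0.60 (SE 0.18, adjusted p = 0.0419), and Cbx5 and Cbx3 gave −0.32 and −0.06 (adjusted p = 0.262 and 0.848). The call of Cbx1 was lost without replicate 2 or 3 of 4.5DDC (0.104 and 0.12), replicate 2 or 3 of 5.5DDC (0.0665 and 0.0628) or replicate 1, 2 or 3 of 6.5DDC (0.068, 0.0842 and 0.113), and in the fit of the 6 libraries compared (0.0649). Cbx3, which has processed copies that may make its counts uncertain (not tested), had the highest mean FPKM of the 3 over all libraries, though Cbx1 was above it at 4.5DDC (115 against 110).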
